A study of Mus musculus with 6 samples.

Results

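The genes described here are Hif1a, which encodes the oxygen-regulated subunit of hypoxia-inducible factor 1 (HIF-1), and 9 genes that this factor is known to induce: Egln1, Egln3, Vegfa, Bnip3, Bnip3l, P4ha1, P4ha2, Ndrg1 and Adm. They were taken by symbol from probe sets with exactly 1 gene symbol, with the brightest probe set over all 6 arrays standing for a gene. This left 9 of the 10 listed genes among 22180 genes in all, because Bnip3l lay only on a probe set that it shares with another gene symbol, and no value is given for it. The samples were macrophages sorted by flow cytometry from BALB/c hearts on day 6 after transplantation into fully allogeneic C57BL/6 mice. For 3 samples the mice had been given mTORi-HDL, a high-density lipoprotein nanoparticle carrying an inhibitor of the kinase mTOR, at a dose of 5 mg/kg on days 0, 2 and 5. The mice of the remaining 3 samples had no treatment, and their grafts were rejected. The sources used here give no ages, sort markers or number of recipients behind a sample, so the p-values measure the spread between these samples, which may be partly technical. Lipoprotein without the drug was not analysed here, and what the drug and what the carrier did cannot be told apart.

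In cells with enough oxygen, prolyl hydroxylases of the EGLN (PHD) family mark HIF-1α for destruction through the von Hippel-Lindau ubiquitin ligase. When oxygen falls, the protein is spared, pairs with ARNT and binds short DNA elements with the core RCGTG (R being A or G) in genes of glycolysis, blood vessel growth, mitophagy and collagen hydroxylation. EGLN1 and EGLN3 are themselves induced by HIF and so limit it, and in macrophages HIF-1α is also raised by inflammatory signals and by mTOR complex 1, which promotes its synthesis. HIF-1α is regulated largely at the protein level, which these RNA measurements do not show.

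Promoter sequence from 250 bases before to 50 bases after the start was matched, from RefSeq (GRCm38.p6), for 8 of the 10 listed genes. The HIF core was searched as ACGTG and GCGTG on both strands (CACGT and CACGC on the strand shown), and a CACGTG palindrome counts as 2 overlapping matches. Of the 9 promoters of these 8 genes, 8 had at least 1 match, where 43.8% of the 32851 RefSeq promoters of the same length had one. Vegfa has 2 promoters in RefSeq, and the one at its upstream start had 0 matches while the one at the downstream start (chr17:46025114-46025413, minus strand) had 2. That second window lies past the upstream start on the same strand, so its matches may fall within the transcribed gene. Hif1a itself had 3 matches, Egln1 2, P4ha1 3, P4ha2 4 and Adm 2. The 3 promoters below are shown because their genes had the clearest lower level, the clearest higher level and no clear difference in the treated samples. Each is given 5′ to 3′ on the gene's own strand, which is the minus strand for all 3, with matches to the core in capitals. Egln3 (chr12:54203825-54204124) had 1 match, 229 bases before the start. Vegfa at its upstream start (chr17:46032328-46032627) had none. Bnip3 (chr7:138909457-138909756) had 5, a count reached by 1.66% of all promoters, of which 2 form 1 palindrome. A match is a stretch of letters and not a shown binding site, and a promoter without one may have elements outside this window.
Egln3: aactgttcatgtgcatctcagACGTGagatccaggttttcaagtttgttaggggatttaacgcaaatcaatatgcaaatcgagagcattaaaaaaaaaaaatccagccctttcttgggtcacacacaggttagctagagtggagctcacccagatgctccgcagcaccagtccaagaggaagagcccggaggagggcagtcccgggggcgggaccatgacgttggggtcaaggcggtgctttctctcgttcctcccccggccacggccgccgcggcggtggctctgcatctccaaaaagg
Vegfa: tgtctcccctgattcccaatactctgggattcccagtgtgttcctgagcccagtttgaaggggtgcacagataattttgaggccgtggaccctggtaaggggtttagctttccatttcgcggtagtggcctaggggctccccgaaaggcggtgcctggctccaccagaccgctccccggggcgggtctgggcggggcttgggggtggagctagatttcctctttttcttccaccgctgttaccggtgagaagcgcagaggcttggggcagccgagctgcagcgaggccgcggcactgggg
Bnip3: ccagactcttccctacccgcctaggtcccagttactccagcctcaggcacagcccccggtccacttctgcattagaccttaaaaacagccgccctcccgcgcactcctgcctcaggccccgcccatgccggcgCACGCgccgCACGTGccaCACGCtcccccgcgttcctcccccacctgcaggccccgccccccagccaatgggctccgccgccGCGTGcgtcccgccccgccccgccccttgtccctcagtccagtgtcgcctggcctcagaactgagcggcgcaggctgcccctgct

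Expression was measured on 1 array per sample, from 15 ng of amplified RNA, as log2 values in which a difference of 1 is a doubling. One array, mTORi-HDL 1, differed widely from the others, with a correlation to them across probe sets of 0.708 to 0.741, where those 5 had 0.892 to 0.912 with each other. Its slope on their mean was 0.641, so bright transcripts read lower and dim ones higher on it. It was the lowest of the 6 arrays for 5 of the 9 HIF genes and the highest for 2 of them, against 23.4% and 45.2% of all genes. Each HIF gene's result is therefore given over all 6 arrays and over the 5 arrays without it. The macrophage label was checked against 12 marker genes, of which 11 were measured and all 11 had a mean at or above the median of all genes. So did 10 of 10 T cell, 8 of 8 natural killer (NK) cell and 6 of 7 B and plasma cell markers. This check therefore does not set macrophages apart from lymphocytes. Lyz2 (lysozyme) lay between 10.80 and 11.62 on all 6 arrays, but the growth factor receptor gene Csf1r read 5.00 on mTORi-HDL 1, against 8.75 and 9.08 on the other treated arrays and 7.54 to 8.19 on untreated arrays. T cell markers were also bright, with Cd3d at 8.37 to 10.62 on treated arrays and 11.31 to 11.45 on untreated arrays, so T cell transcripts were measured in the sorted cells. The NK cell list held bright genes too, with Gzma at 10.99 to 11.47 on treated arrays and 11.14 to 11.78 on untreated arrays. In such bulk samples fewer cells of a type and less RNA per cell cannot be told apart.

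Of the 9 HIF genes measured, Egln3 was the one whose 3 treated values all lay below the 3 untreated values, and Vegfa was higher on 2 of the 3 treated arrays. Hif1a itself was within 0.26 of its untreated mean on mTORi-HDL 2 and 3 and 2.71 below it on mTORi-HDL 1. None of the 9 passed the test over all genes (limma, adjusted p of 0.696 to 0.994), where 0 of 22180 genes passed (0%). At an unadjusted p under 0.05 there was 1 of 9, Egln3, which was lower, against a background of 4.64% of all genes in either direction and 3.07% in the lower one. The groups did not overlap for 1 of 9, again Egln3, against 10.9% of all genes. The median log2 difference of the 9 was -0.54, beside 0.08 over all genes. Among genes at or above the median brightness, which held 7 of the 9, the members' median was -0.69, beside -0.12 over those genes. Without mTORi-HDL 1 the median of the 9 was -0.12, beside -0.03 over all genes, so the members' median then lay close to that of all genes. Then 2 of 9 were at an unadjusted p under 0.05, Egln3 lower and Vegfa higher, against 6.97% of all genes (3.51% lower, 3.47% higher), and the groups did not overlap for the same 2, against 22.3%. Of the 9, 7 had a lower and 2 a higher mean in treated samples over all arrays, where 41.8% of all genes had a lower mean. Without mTORi-HDL 1 there were 6 with a lower and 3 with a higher mean, where 53.4% of all genes had a lower one.

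**Figure D1:**
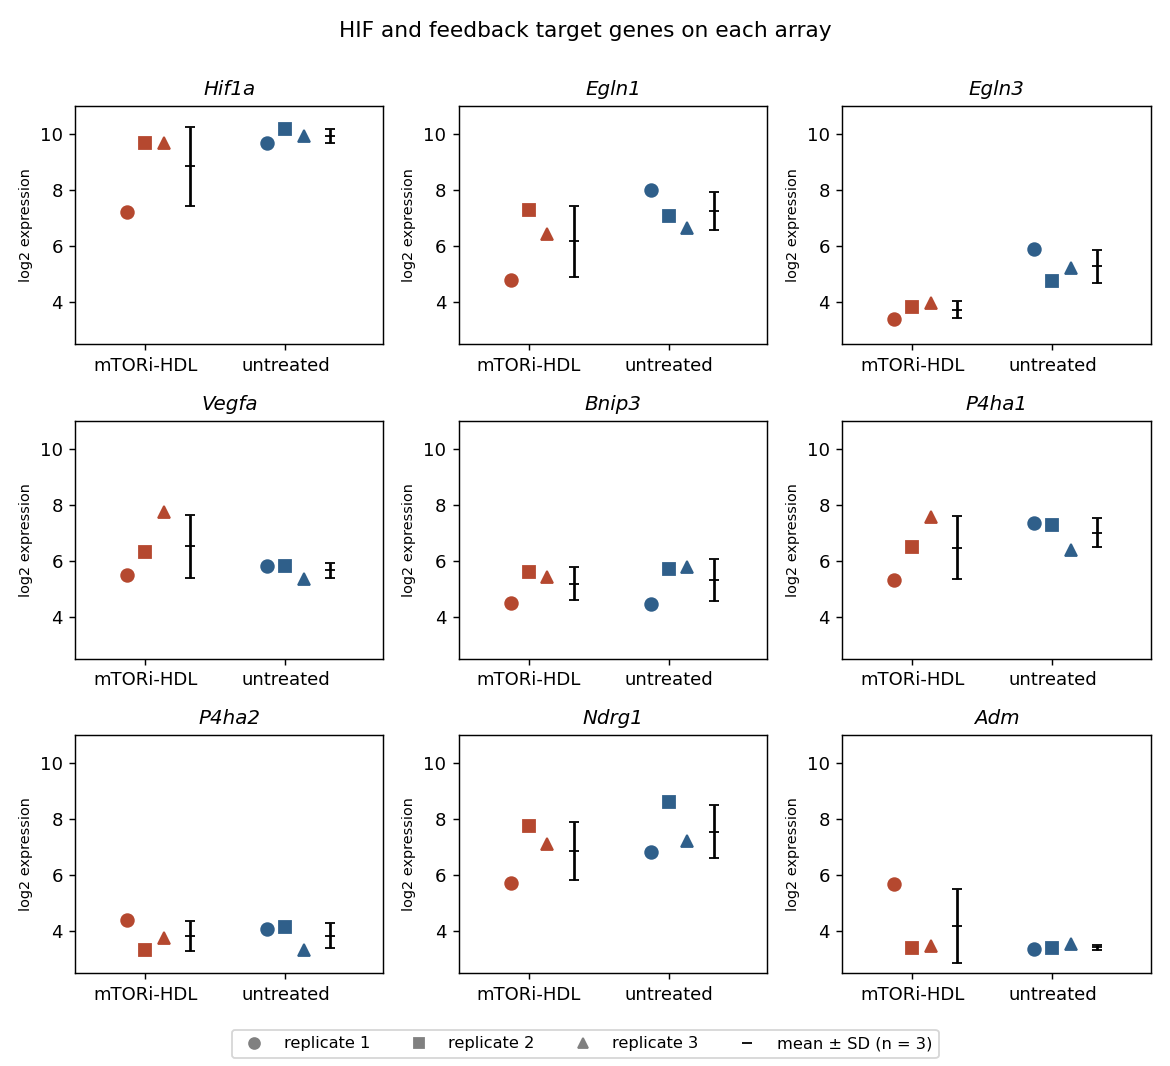
Log2 expression (y axis, the same scale in each panel) of the 9 measured HIF genes on the 3 mTORi-HDL arrays (left, red) and the 3 untreated arrays (right, blue), with the marker shape giving the replicate number and black bars the mean ± SD of 3 arrays. Egln3 lies between 3.39 and 3.98 in treated samples and between 4.74 and 5.90 in untreated samples, and mTORi-HDL 1 is the low point for Hif1a and the high point for Adm.

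Hif1a is the master factor of the group. Its values were 7.22, 9.68 and 9.67 on mTORi-HDL arrays 1 to 3, against 9.67, 10.18 and 9.94 on untreated arrays 1 to 3. The lowest untreated value thus lay level with mTORi-HDL 2 and 3, and the groups overlapped. The log2 difference was -1.08 ± 0.65 (SE, n = 3 each; 95% interval -2.60 to 0.45; limma, adjusted p = 0.890). Without mTORi-HDL 1 it was -0.26 ± 0.24 (interval -0.83 to 0.31; limma, adjusted p = 0.908), an interval that does not reach the value over all arrays. A second, dimmer probe set of Hif1a had 4.26, 6.10 and 6.18 on treated arrays, against 6.16, 7.45 and 6.11 on untreated arrays. It showed the same single low array, mTORi-HDL 1, and a high value on untreated 2.

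Egln3 encodes PHD3, a hydroxylase strongly induced by HIF. It had 3.39, 3.82 and 3.98 on mTORi-HDL arrays 1 to 3, against 5.90, 4.74 and 5.21 on untreated arrays 1 to 3. All treated values were below all untreated values, with a gap between the highest treated and the lowest untreated array that did not depend on mTORi-HDL 1. The means were 3.73 ± 0.31 in mTORi-HDL samples and 5.28 ± 0.59 in untreated samples (SD, n = 3 each). The log2 difference was -1.55 ± 0.37 on the deposited log2 scale (SE; 95% interval -2.41 to -0.70). It had an unadjusted p of 0.0033 in limma's fit over all genes and did not pass adjustment (adjusted p = 0.696). Without mTORi-HDL 1 the difference was -1.38 ± 0.36 (limma, unadjusted p = 0.00664, adjusted p = 0.424). It was negative in all 14 alternative settings, from -1.83 to -1.25, with an unadjusted p of at most 0.0124 and an adjusted p of 0.220 to 1. The medians of all probe sets on an array were 3.85 to 4.22, so Egln3 was dim in the treated samples, and the table has no detection call to say whether it was above background there, so no fold is given.

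T cell and cell division markers were lower on the same arrays as Egln3. The 10 measured of 12 T cell markers were lower in 10 of 10, with mean levels of 6.71 to 8.34 in treated and 9.25 to 9.42 in untreated samples. The 14 measured of 15 cell division genes were lower in 14 of 14, with mean levels of 4.86 to 5.64 against 6.97 to 7.38. On mTORi-HDL arrays 1 to 3 Egln3 lay at -1.89, -1.47 and -1.30 from its untreated mean, the T cell list at -2.64, -1.15 and -1.01, and the cell division list at -2.33, -1.55 and -1.78. No marker of these 2 lists was below the median brightness of all genes. Their part in the result for Egln3 was not tested.

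Egln1 encodes PHD2, the main oxygen sensor of most cells. It had 4.80, 7.30 and 6.42 on treated arrays, against 7.99, 7.08 and 6.66 on untreated arrays. Treated 2 lay among the untreated values, treated 3 just under them and treated 1 far below. The log2 difference was -1.07 ± 0.65 (SE; limma, adjusted p = 0.890), and -0.38 ± 0.45 without mTORi-HDL 1 (95% interval -1.46 to 0.70; adjusted p = 0.938). Without mTORi-HDL 2, which was the highest treated array, it was -1.63 (limma, unadjusted p = 0.0316, adjusted p = 0.690). Both sensors had a lower mean, but Egln3 was low on each treated array and Egln1 mainly on 1, and whether the 2 genes differed in their change was not tested.

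Vegfa encodes the vascular endothelial growth factor VEGF-A, the best known secreted HIF product. It had 5.50, 6.30 and 7.73 on treated arrays, against 5.80, 5.82 and 5.34 on untreated arrays. Treated 2 and 3 were above every untreated array, while treated 1 was among them. The log2 difference over all arrays was 0.86 ± 0.55 (SE; 95% interval -0.42 to 2.14; limma, adjusted p = 0.890). Without mTORi-HDL 1 it was 1.36 ± 0.43, or 2.57 times the untreated level (limma, unadjusted p = 0.0172, adjusted p = 0.542). The difference over all arrays rested much on mTORi-HDL 3. With that array left out and mTORi-HDL 1 kept, the Vegfa difference was 0.25. Its direction was upward in all 14 alternative settings. Macrophage markers were higher on the same 2 arrays: the list lay at -0.75, 0.83 and 1.60 from its untreated mean on mTORi-HDL arrays 1 to 3, where Vegfa lay at -0.15, 0.64 and 2.08. All 11 measured markers had a higher mean in treated samples without mTORi-HDL 1, and the list's mean levels were 6.74 to 9.09 in treated and 7.11 to 7.79 in untreated samples. Connective tissue markers were higher too, at 5.15 to 5.28 in treated and 4.42 to 4.49 in untreated samples over 11 genes, 8 of them with a higher mean. The part of either list in the result for Vegfa was not tested.

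**Figure D2:**
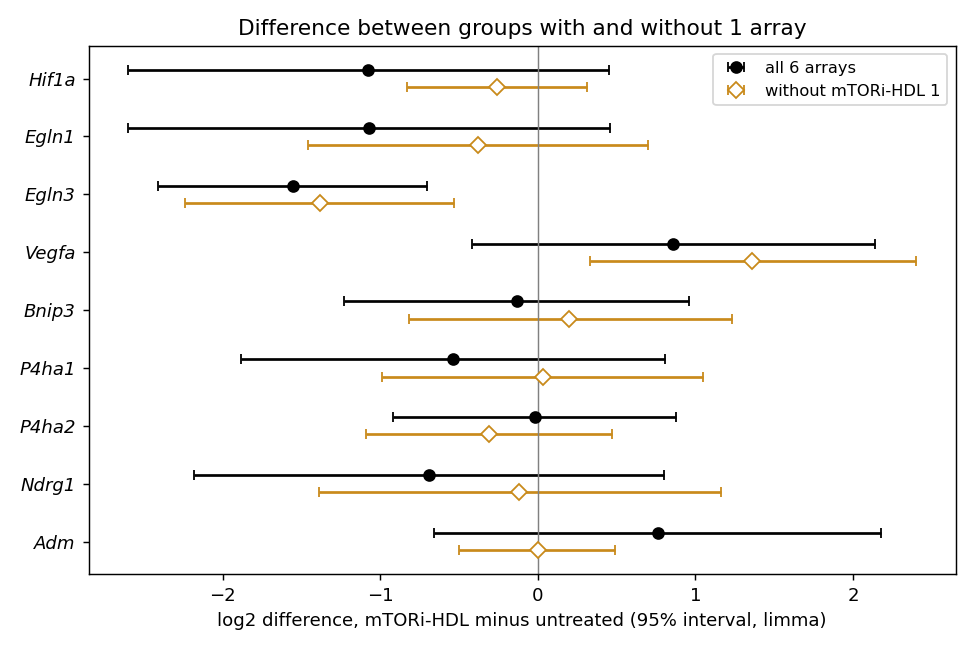
Log2 difference of each measured HIF gene, mTORi-HDL minus untreated, with its 95% interval from limma over all 6 arrays (filled circles) and without mTORi-HDL 1 (open diamonds). The intervals of Egln3 lie below 0 in both fits, that of Vegfa lies above 0 without mTORi-HDL 1 (0.33 to 2.40), and these intervals are not adjusted for the number of genes.

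Adm encodes adrenomedullin, a vasodilator peptide. It had 5.70, 3.38 and 3.45 on treated arrays, against 3.35, 3.38 and 3.52 on untreated arrays. A single array, mTORi-HDL 1, was high and the other 5 lay within a narrow range. Its mean was below the median of all genes, and mTORi-HDL 1 was the highest of 6 for 45.2% of all genes. The log2 difference was 0.76 ± 0.61 (SE; limma, adjusted p = 0.890), and without mTORi-HDL 1 it was -0.00096 ± 0.21 (95% interval -0.50 to 0.49; adjusted p = 1). Erythroid and platelet markers were high on that array as well, at 5.72 over 4 measured of 9 genes, against 4.11 and 4.13 on the other treated arrays and 4.10 to 4.28 on untreated arrays. Among them Pf4, platelet factor 4, was at 8.45 on mTORi-HDL 1 and at 4.77 to 5.96 on the other 5 arrays. The 4 measured genes were Pf4, Ppbp, Itga2b and Epb42. Their list lay at 1.51 from its untreated mean on mTORi-HDL 1. The connective tissue list lay at 0.83 there, neutrophil at 0.71, heart muscle at 0.59, mast cell and basophil at 0.49 and endothelial at 0.24. The macrophage, T cell, NK cell, B and plasma cell, dendritic cell and cell division lists lay below their untreated means. The part of any of these lists in the value of Adm was not tested.

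Ndrg1 encodes a stress-induced cytoplasmic protein that is a common marker of hypoxia. It had 5.72, 7.76 and 7.11 on treated arrays, against 6.84, 8.61 and 7.21 on untreated arrays. The groups overlapped, and the highest value came from untreated 2. The log2 difference was -0.69 ± 0.64 (SE; limma, adjusted p = 0.890) and -0.12 ± 0.53 without mTORi-HDL 1 (95% interval -1.39 to 1.16). Its second probe set, with 4.82, 6.43 and 6.45 against 6.28, 6.56 and 6.71, differed by -0.62 on average.

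Bnip3 encodes a mitochondrial receptor for mitophagy. It had 4.50, 5.59 and 5.43 on treated arrays, against 4.44, 5.71 and 5.78 on untreated arrays. Each group held 1 low array, and the other 4 values lay close together. The log2 difference was -0.13 ± 0.47 (SE; limma, adjusted p = 0.958). Without mTORi-HDL 1 it turned to 0.20 ± 0.43 (95% interval -0.82 to 1.23; adjusted p = 0.971), so no direction can be given, and a doubling is inside the interval.

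P4ha1 and P4ha2 encode catalytic subunits of collagen prolyl 4-hydroxylase, which lets procollagen form a stable triple helix. P4ha1 had 5.32, 6.50 and 7.56 on treated arrays, against 7.34, 7.27 and 6.38 on untreated arrays. The treated values spanned a wider range than the untreated ones on both sides. Its log2 difference was -0.54 ± 0.58 (SE; limma, adjusted p = 0.890) and 0.03 ± 0.43 without mTORi-HDL 1 (95% interval -0.99 to 1.05). P4ha2 had 4.40, 3.31 and 3.76 on treated arrays, against 4.08, 4.14 and 3.31 on untreated arrays. It was dim in both groups, with a mean below the median of all genes as was that of Adm, and it had a log2 difference of -0.02 ± 0.39 (SE; limma, adjusted p = 0.994). Without mTORi-HDL 1 this was -0.31 ± 0.33 (95% interval -1.09 to 0.47), and it was above 0 in 4 of the 13 settings that tested P4ha2.

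Array by array, the 9 genes did not move as 1 block. Their median lay at -1.67 from the untreated mean on mTORi-HDL 1, with 7 of 9 below it, while the median of all genes lay at 0.27 there. Of the 9, 7 were at or above the median brightness of all genes, and bright transcripts read lower on that array. On mTORi-HDL 2 and 3 the medians were -0.04 and -0.08, with 5 of 9 below on each, beside -0.03 for all genes on both arrays. The largest distances on those 2 arrays were those of Egln3 (-1.47 and -1.30) and Vegfa (0.64 and 2.08), in opposite directions. The genes nearest to Hif1a in profile, by the root mean square distance of log2 values centred on each gene's mean over 6 arrays, were Ptpn11 (0.08), Usp4 (0.11) and Pnpla2 (0.12), out of 11083 genes with a median distance of 0.97. All 3 shared a low value on mTORi-HDL 1, such as 2.77 for Ptpn11, which had 5.36 to 5.97 on the other 5 arrays. Among the HIF genes the nearest were Ndrg1 (0.54), Egln1 (0.58) and P4ha1 (0.60), and the farthest of those compared was Vegfa (1.12).

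Genes that work with these were read from 8 lists, given by counts with no test of a list. Of 124 distinct measured genes 70 had a lower and 54 a higher mean in treated samples, and 0 passed limma's test over all genes. Over all genes 41.8% had a lower mean. At an unadjusted p under 0.05 there were 7 of 124 (5.65%, beside 4.64% of all genes), 5 lower and 2 higher, beside 3.07% and 1.57% of all genes. Without mTORi-HDL 1 there were 8 of 124 (6.45%, beside 6.97%), 3 lower and 5 higher, and the 4 genes Ak4, Ero1a, Gabarapl1 and Nrp2 were in both counts. The other genes with a higher mean in the second count were Vegfb, Ep300, Ramp2 (a partner of the adrenomedullin receptor) and the anti-apoptotic gene Bcl2, of which the last 3 are named after their values were seen. The groups did not overlap for 14 of the 124 over all arrays (11.3%, beside 10.9% of all genes). The median log2 difference of the 124 genes was -0.11, and 0.0038 when mTORi-HDL 1 was left out. Without that array 61 of the 124 had a lower and 63 a higher mean, where 53.4% of all genes had a lower one.

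**Figure D3:**
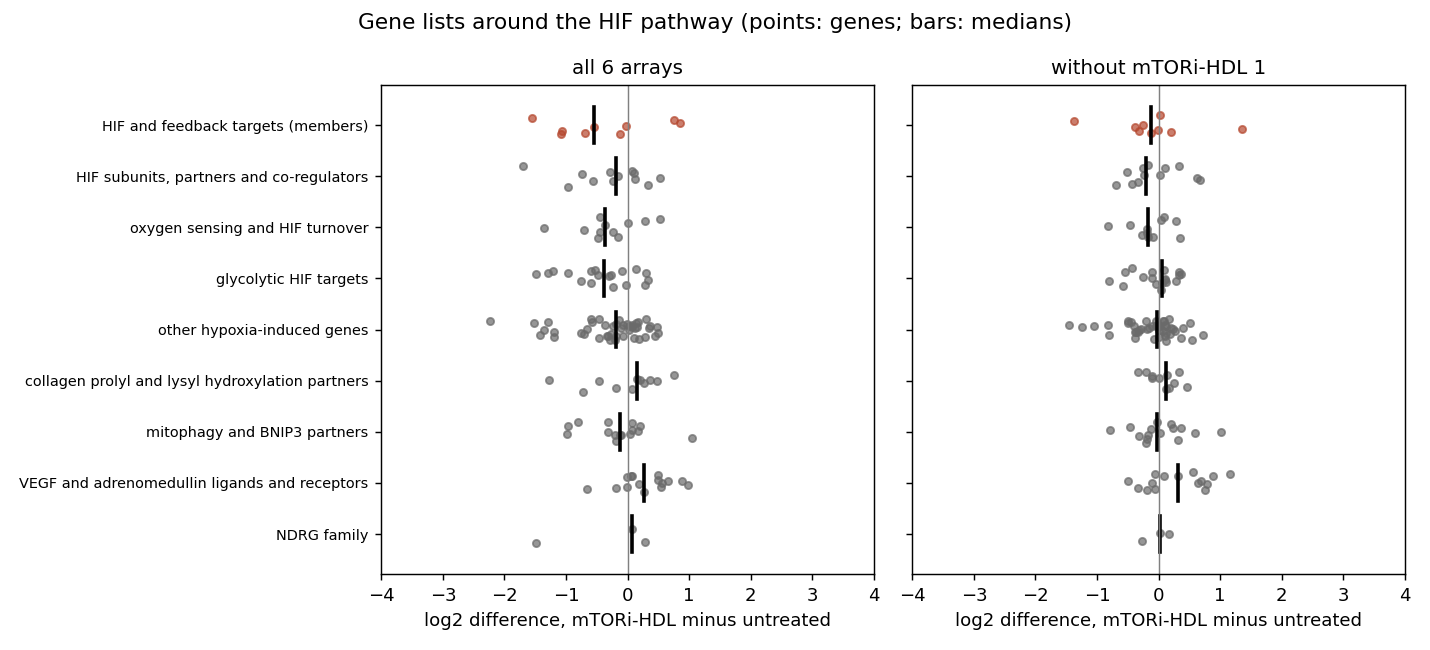
Log2 difference, mTORi-HDL minus untreated, of each measured gene (points) in the HIF group (top, red) and in 8 lists of related genes (grey), over all 6 arrays (left) and without mTORi-HDL 1 (right), with black bars for medians and vertical jitter without meaning. The median of the HIF group is -0.54 on the left and -0.12 on the right, and that of the glycolytic targets is -0.39 on the left and 0.05 on the right.

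Of 12 HIF subunits, partners and co-regulators, 7 had a lower and 5 a higher mean. Arntl (Bmal1), a clock factor related to the HIF partner ARNT, had 4.02, 3.93 and 4.38 on treated arrays, against 5.27, 4.80 and 4.46 on untreated arrays (limma, unadjusted p = 0.0455, adjusted p = 0.890; unadjusted p = 0.0594 without mTORi-HDL 1). Crebbp, a histone acetyltransferase that HIF recruits, had a log2 difference of -1.70 ± 0.92 and of -0.52 ± 0.33 without mTORi-HDL 1 (SE). Hif3a, a HIF subunit that can oppose the others, differed by 0.52 over all arrays and by 0.33 without mTORi-HDL 1. Pkm, pyruvate kinase, differed by -0.96 over all arrays and by -0.26 without that array. Ep300, the paralogue of Crebbp, had an unadjusted p of 0.0215 without mTORi-HDL 1, at a log2 difference of 0.62. Of 11 measured genes of oxygen sensing and HIF turnover, 8 had a lower and 3 a higher mean and 0 had an unadjusted p under 0.05. Vhl, the substrate receptor of the ligase that destroys HIF-1α, had 4.68 ± 0.27 in mTORi-HDL samples and 5.12 ± 0.22 in untreated samples, while its ligase partner Eloc had 8.76 ± 0.50 against 8.23 ± 0.35 (SD, n = 3 each), a difference of 0.53 that was 0.29 without mTORi-HDL 1. The ubiquitin ligase gene Siah1a, whose product acts on EGLN proteins, differed by -1.35, and by -0.82 without mTORi-HDL 1. Hsp90aa1, a chaperone of HIF-1α, differed by -0.48 and by -0.17 without that array.

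Of 18 measured glycolytic HIF targets, 14 had a lower mean over all arrays but 8 without mTORi-HDL 1, beside 41.8% and 53.4% of all genes. Pfkfb3, which makes the activator of phosphofructokinase, had 4.27, 5.19 and 6.24 on treated arrays, against 6.64, 6.78 and 6.15 on untreated arrays. It differed by -1.29 (limma, unadjusted p = 0.0347, adjusted p = 0.890) and by -0.81 without mTORi-HDL 1. The lactate exporter Slc16a3 had 4.93 ± 0.50 in mTORi-HDL samples and 5.69 ± 0.13 in untreated samples, lactate dehydrogenase Ldha had 4.09 ± 0.18 against 4.61 ± 0.06, and Pgk1, phosphoglycerate kinase, had 8.56 ± 1.60 against 10.05 ± 0.63 (SD, n = 3 each). Pgk1 differed by -1.49, and by -0.58 with mTORi-HDL 1 left out. The groups did not overlap for Slc16a3 and Ldha, nor for Pkm given above, which made 3 of the 18 genes, beside 10.9% of all genes. None of Pfkfb3, Slc16a3, Ldha and Pgk1 passed adjustment. Ldha lay near the median of all genes (4.18), and no detection call says whether it was above background.

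Of 45 other hypoxia-induced genes measured, 28 had a lower and 17 a higher mean, where 41.8% of all genes had a lower one. At an unadjusted p under 0.05 in limma's fit 3 were lower, Pfkfb3, Ak4 and Ero1a, beside 3.07% of all genes. Without mTORi-HDL 1, 24 had a lower and 21 a higher mean, at a median difference of -0.02. Then 2 were lower at that p, Ak4 and Ero1a, beside 3.51% of all genes. Ak4, a mitochondrial adenylate kinase, had 3.99, 3.53 and 4.16 on treated arrays, against 5.27, 4.97 and 5.02 on untreated arrays. Its groups did not overlap, with a log2 difference of -1.19 ± 0.28 (SE; limma, unadjusted p = 0.00339, adjusted p = 0.696) and -1.24 without mTORi-HDL 1. Ero1a, an oxidase of protein folding in the endoplasmic reticulum, had 6.26, 6.56 and 6.84, against 7.44 to 8.26 on untreated arrays, and differed by -1.20 ± 0.33 (limma, unadjusted p = 0.00697, adjusted p = 0.852). These 2 genes were low on each treated array, the same arrays on which the T cell and cell division lists were low, and the part of those lists was not tested. Ak4 was dim in the treated samples, as Egln3 was, and whether it was above background there is not known. Flt1, a VEGF receptor also listed among the ligands and receptors, had 3.60 ± 0.31 in mTORi-HDL samples and 4.26 ± 0.35 in untreated samples (SD, n = 3 each). It was dim in both groups, with no detection call to say whether it was above background.

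Of 15 VEGF and adrenomedullin ligands and receptors, 11 had a higher and 4 a lower mean, where 41.8% of all genes had a lower one. At an unadjusted p under 0.05 in limma's fit 2 of the 15 were higher, beside 1.57% of all genes. Without mTORi-HDL 1, 9 had a higher and 6 a lower mean, where 53.4% of all genes had a lower one. Then 3 were higher at that p, beside 3.47% of all genes. Nrp2, a co-receptor of VEGF family ligands, had 4.46, 5.37 and 5.15 on treated arrays, against 4.12, 3.87 and 4.32 on untreated arrays. It differed by 0.89 (limma, unadjusted p = 0.0268, adjusted p = 0.890) and by 1.16 without mTORi-HDL 1. Ackr3, an atypical receptor that can bind adrenomedullin, had 6.00, 4.79 and 5.47, against 4.22 to 4.76 on untreated arrays, and differed by 0.98 (unadjusted p = 0.0308, adjusted p = 0.890 in limma), and by 0.69 without mTORi-HDL 1 (unadjusted p = 0.0559). Vegfb had 7.13 ± 0.14 in mTORi-HDL samples and 6.64 ± 0.21 in untreated samples (SD, n = 3 each), with groups that did not overlap. Endothelial cells are rich in such receptors, and endothelial markers had mean levels of 4.03 to 4.31 in treated and 3.84 to 4.26 in untreated samples over 10 genes, 2 of them at or above the median brightness of all genes. On mTORi-HDL arrays 1 to 3 the receptor and ligand list lay at 0.24, 0.32 and 0.30 from its untreated mean, and the endothelial list at 0.24, 0.11 and -0.04. The VEGF receptor gene Kdr is in both lists, and differed by 0.56 over all arrays and by 0.64 without mTORi-HDL 1. Some other marker lists lay above their own untreated means on all 3 treated arrays. The connective tissue list lay at 0.83, 0.77 and 0.70, the mast cell and basophil list at 0.49, 0.46 and 0.95 (7 of 8 genes with a higher mean, levels of 4.09 to 4.58 in treated and 3.49 to 3.72 in untreated samples), and the heart muscle list at 0.59, 0.77 and 0.19 (10 of 11 genes, 4.57 to 5.14 in treated and 4.13 to 4.71 in untreated samples). On mTORi-HDL 3 the heart muscle list (4.57) was below untreated 1 (4.71). Without mTORi-HDL 1, 6 of the 8 mast cell and basophil genes and 8 of the 11 heart muscle genes had a higher mean. The part of these marker lists in the values of the receptor genes was not tested.

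**Figure D4:**
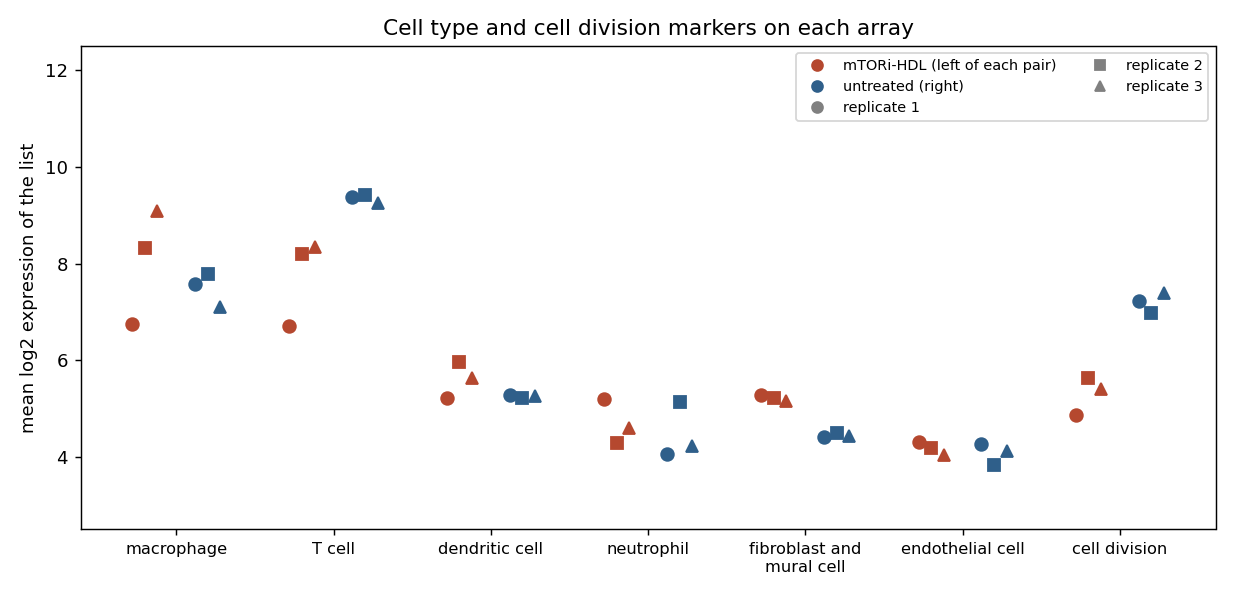
Mean log2 expression (y axis) of 7 marker lists on each array, mTORi-HDL at the left (red) and untreated at the right (blue) of each pair, with the marker shape giving the replicate number. T cell and cell division lists are lower on all 3 treated arrays (T cell 6.71 to 8.34 against 9.25 to 9.42), and the macrophage list is higher on treated 2 and 3 (8.32 and 9.09) and lower on treated 1 (6.74) than the untreated arrays (7.11 to 7.79).

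The remaining lists held few differences. Of 15 measured mitophagy genes and BNIP3 partners, 9 had a lower mean, and Gabarapl1, an autophagosome protein that BNIP3-type receptors bind, was lower at an unadjusted p of 0.0101 in limma's fit (adjusted p = 0.890), with 3.12 to 3.89 on treated and 4.44 to 4.58 on untreated arrays. Gabarapl1 was dim in the treated samples, and whether it was above background there is not known. Fundc1, another mitophagy receptor, had 5.01 ± 1.04 against 3.97 ± 0.31 (SD, n = 3 each), a difference of 1.04 that was 0.60 without mTORi-HDL 1. Nbr1 and Opa1 differed by -0.80 and -0.97 over all arrays and by -0.19 and -0.21 without mTORi-HDL 1. Of 11 partners of collagen hydroxylation 7 had a higher and 4 a lower mean and 0 had an unadjusted p under 0.05. P4hb, the subunit that P4ha1 and P4ha2 need, had 4.04, 8.18 and 8.62 on treated arrays, against 8.21, 7.57 and 8.90 on untreated arrays, so a single array set its difference of -1.28. Without that array it was 0.17. P3h3, Plod1 and Ppib differed by 0.76, -0.47 and -0.73 over all arrays and by 0.46, -0.34 and -0.11 without mTORi-HDL 1. The relatives of Ndrg1 were Ndrg2, Ndrg3 and Ndrg4, with log2 differences of 0.08, -1.49 and 0.29 over all arrays and of 0.02, -0.27 and 0.17 without mTORi-HDL 1.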

How the data were processed

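Log2 expression values of 41345 probe sets on 6 arrays were used as deposited. Per the submitters' processing notes they were made with Affymetrix Expression Console and RMA (background correction, quantile normalization and probe set summary). The versions, genome build and filters are not given in the sources used here. Arrays have no read depth, and their number limits the precision. No value was missing and no 2 arrays were identical.

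The platform annotation gave 1 gene symbol to 23521 probe sets, several to 1814 and none to 16010. For 1082 genes with more than 1 single-symbol probe set the brightest was used, giving 22180 genes. The 2 groups were fitted by limma 3.58.1 under R 4.3.3, with lmFit, eBayes and no other term (4 residual degrees of freedom, two-sided) and Benjamini-Hochberg adjustment over all genes at a threshold of 0.05 and no filter on dim genes. Differences are mTORi-HDL minus untreated. The script was tested on simulated arrays.

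The members and the 8 pathway and 12 marker lists were chosen with earlier results of these data known. Of 277 list entries 251 were measured, 1 of them by gene identifier, 13 shared their probe sets with other genes and 13 were not analysed here. Named genes were the members, up to 4 genes per pathway list with the smallest p, the brightest markers where needed, and the 3 genes nearest to Hif1a among those at or above the median brightness. Other markers and any exception were named for a value given beside a result. The alternatives were median centring, quantile normalization, cyclic loess, the replicate number as a block, a filter at the median brightness, a robust eBayes with trend, averaging the probe sets of a gene, array weights, and each array left out in turn.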

Additional observations from a re-analysis of the deposited data

How the results depend on the processing

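Under 14 alternatives 0 members passed at an adjusted p of 0.05. Hif1a, Egln1, Egln3, Ndrg1 and Vegfa kept their direction in all of them. Over all genes the count past the threshold was 0 except with array weights, where it was 1 (H2bc12). At an unadjusted p under 0.05 there were 1029 genes over all arrays, 635 with the filter at the median brightness (fewer genes tested), 1768 with array weights, and 615 (without untreated 3) to 1547 (without mTORi-HDL 1) with 1 array left out. Members at an unadjusted p under 0.05 numbered 2 of 9 with quantile normalization, cyclic loess and array weights. Over all 22180 genes there were 983, 1280 and 1768 in these 3 settings. With 1 array left out the members numbered 1 to 2, beside the 615 to 1547 genes given above. Members whose groups did not overlap numbered 3 with quantile normalization and cyclic loess, and 1 to 3 with 1 array left out. Over all genes the share without overlap was 10.9% on all 6 arrays and 22.3% without mTORi-HDL 1. It was not computed for the normalizations or for leaving out another array, so those counts cannot be set against it. The members' median difference was -0.61 with median centring, -0.27 with quantile normalization and -0.07 with cyclic loess. With the filter (7 members left) it was -0.69, beside -0.12 over the genes kept. It was -0.19 with array weights and -0.85 (without untreated 3) to -0.12 (without mTORi-HDL 1) with 1 array left out. The direction turned for Bnip3 with cyclic loess (0.01) and array weights (0.14), and for P4ha1 (0.03 and 0.07). With 1 array left out Bnip3 ranged from -0.57 to 0.20, P4ha1 from -1.09 to 0.03, P4ha2 from -0.31 to 0.24 and Adm from -0.00096 to 1.16. The causes of these shifts were not tested.

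The replicate number may not pair the samples: deviations from the group means correlated at 0.14, 0.13 and -0.02 for the numbers 1, 2 and 3, and not every array had its highest correlation with its own number. With the replicate block 0 genes passed, 1183 had an unadjusted p under 0.05 and the members' median difference was -0.54, with 1 member, Egln3, at an unadjusted p under 0.05 (0.00927).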
